A study of Homo sapiens with 30 samples.

Results

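Transcript levels of the MYC, MAX and MXD network were examined in HCT116 and Ramos cells treated with Omomyc, a recombinant miniprotein derived from the basic helix-loop-helix leucine zipper of MYC. The members were taken by name and comprise 10 of the 57992 genes in the deposited table: MYC, MAX, MXD1, MXI1, MXD3, MXD4, MNT, MGA, MLX and MLXIP. All 10 passed the filter on low values in every comparison, which required a mean of at least 0.5 RPKM (reads per kilobase of transcript, scaled to the reads of the library) over the libraries compared.

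The table covers 30 libraries of total RNA depleted of ribosomal RNA, with 3 libraries in each of 10 groups. HCT116 is a human colon carcinoma line, and its cells were untreated or received Omomyc at 2 or 10 μM, doses as labelled, for 6 or 24 h. Ramos is a human Burkitt's lymphoma line with a translocated MYC locus, and its cells were untreated or received Omomyc at 500 nM or 2.5 μM for 6 or 24 h. The HCT116 treatments used ProteoJuice, a protein transfection reagent, and for the untreated HCT116 cells the labels do not say whether the reagent was present. In the methods, reagent and Omomyc were applied in Opti-MEM, and medium with serum was added for incubations longer than 4 h. Whether untreated HCT116 cells had this change of medium is not stated, so it cannot be told apart from Omomyc. The delivery of Omomyc to Ramos cells is not described. The methods give the lower HCT116 dose as a slightly higher concentration than the labels do, and the labelled 2 μM is used throughout. A time tag of 4 h stands on the libraries titled 24 h, and the titles were followed. Each cell line is 1 line without a second line of its type, so the lines and the tissues they come from cannot be told apart. The labels do not say that the 3 libraries of a group came from separate cultures, so the p-values below measure the spread between these libraries, which may be technical.

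MYC binds DNA as a heterodimer with MAX, at E box elements, and activates transcription. The MXD proteins (MXD1, MXI1, MXD3 and MXD4), MNT and MGA also pair with MAX and bind the same elements, where MXD proteins and MNT recruit SIN3 and histone deacetylases and MGA joins a noncanonical Polycomb complex. MLX pairs with a subset of the MXD proteins and with the glucose-sensing factor MLXIP (MondoA), and thereby forms a parallel arm of the network. Omomyc dimerizes with MAX and with itself and occupies E boxes without an activation domain. The paper reports that Omomyc also bound MYC in cells and that treatment lowered MYC protein. The transcript levels here do not measure protein.

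The symmetric E box CACGTG, which MAX dimers bind, was looked for in the promoters of the members because it is the letter sequence the network shares. The windows ran from 250 bases before to 50 bases after each RefSeq start on GRCh38.p14. A window was found for 9 of the 10 members, MYC being the exception. CACGTG, which reads the same on both strands, lay in the windows of 3 members (MXD4, MNT and MLX), and 2396 of 27305 genes (8.77%) held it in at least 1 of their windows (2548 of all 35116 windows, 7.26%). The 3 stretches are printed 5′ to 3′ on the strand of the gene, with the E box in capitals. They lie at chr4:2262330-2262359 (minus strand), chr17:2401236-2401265 (minus strand) and chr17:42567038-42567067 (plus strand), and each overlaps 0 GENCODE genes and 0 exons, since all lie upstream of the annotated gene.
MXD4 promoter: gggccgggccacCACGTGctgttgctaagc
MNT promoter: ccctgcccgggcCACGTGtgcgcgcgccgg
MLX promoter: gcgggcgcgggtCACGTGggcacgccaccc
The first base of the E box lay 238 (MXD4), 193 (MNT) and 50 (MLX) bases before the RefSeq start. The related sequence CACGCG, counted on both strands, was present in the single window of MXD3 and in 1 of 3 windows of both MXI1 and MGA, against 13.5% of all genes and 11.4% of all windows. These matches describe letters in a window and do not show binding.

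Depth per library is unknown because the table holds only RPKM, and the 3 libraries of each group set the precision. Summed RPKM ranged from 593633 to 1051040 in HCT116 cells and from 783788 to 973736 in Ramos cells. The highest sum belonged to replicate 3 of HCT116 cells at 10 μM and 6 h, in which RN7SL1, a noncoding RNA of the signal recognition particle, made up 19.7%. The changes of the members and the list counts at 10 μM and 6 h were therefore also computed without that library. The most abundant gene of every library was RN7SK, RN7SL1 or RN7SL2, at 5.48 to 19.7% of the sum. RN7SK made up 15.1 to 16.8% in untreated Ramos libraries and 11.6 to 13.1% at 2.5 μM and 24 h. These RNAs enter the equal-sum rescaling used below, and their part in its results was not tested. The 5 B-cell markers examined (MS4A1, CD79A, CD79B, PAX5 and CD22) summed to 1403 to 1576 RPKM in Ramos libraries and 0.687 to 3.08 RPKM in HCT116 libraries. The 6 epithelial markers (EPCAM, KRT8, KRT18, KRT19, CDH1 and VIL1) summed to 1414 to 2231 RPKM in HCT116 libraries and 0 to 1.74 RPKM in Ramos libraries, with VIL1 at 0 to 0.0602 RPKM in HCT116 cells.

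In untreated cells of both lines, MYC was the most abundant member by RPKM, followed by MGA. MYC stood at 115, 116 and 124 RPKM in untreated HCT116 cells and at 131, 137 and 153 RPKM in untreated Ramos cells. In HCT116 cells the order of mean RPKM was MYC, MGA, MXI1, MLX, MAX, MXD3, MLXIP, MXD4, MNT and MXD1, and the library ranges of neighbours overlapped for MXI1 with MLX and for MAX with MXD3. In Ramos cells the order was MYC, MGA, MAX, MLX, MXD4, MXD3, MLXIP, MXI1, MXD1 and MNT, with overlapping ranges for MGA with MAX, MXD4 with MXD3, MLXIP with MXI1 and MXD1 with MNT.

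Between the untreated lines, 9 of the 10 members differed, 5 higher and 4 lower in HCT116 cells (limma, Benjamini-Hochberg adjusted p under 0.05), and 84.6% of all genes tested did so (45.7% higher and 39% lower). The libraries of the lines did not overlap for the same number of members, 9, against 85.6% of all genes. The MXD genes went apart: MXI1 was at 23.0 ± 1.35 RPKM (SD, n = 3) in HCT116 cells and 6.29 ± 0.408 RPKM (SD, n = 3) in Ramos cells. Its difference was 1.79 on the log2(RPKM + 0.5) scale (limma adjusted p = 3e-07), a 3.46-fold higher level in HCT116 cells. MXD3 (0.64, adjusted p = 0.00289), MNT (0.78, adjusted p = 6.46e-05), MLXIP (0.88, adjusted p = 3.24e-05) and MLX (0.18, adjusted p = 0.0144) were also higher in HCT116 cells in limma.
MXD1 (-1.11, adjusted p = 8.12e-06), MXD4 (-0.86, adjusted p = 2.56e-05), MAX (-0.49, adjusted p = 0.00193) and MYC (-0.24, adjusted p = 0.0105) were lower in HCT116 cells in limma. The MYC and MAX differences turned to 0.33 and 0.07 when each library was rescaled to an equal sum, a scaling that moved the median over all genes from 0.09 to 0.65, and the MYC difference did not pass without the filter on low values. MGA did not pass the test (0.05, limma adjusted p = 0.393), but under equal-sum rescaling it was 0.62 and passed (adjusted p = 0.000242).

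**Figure D1:**
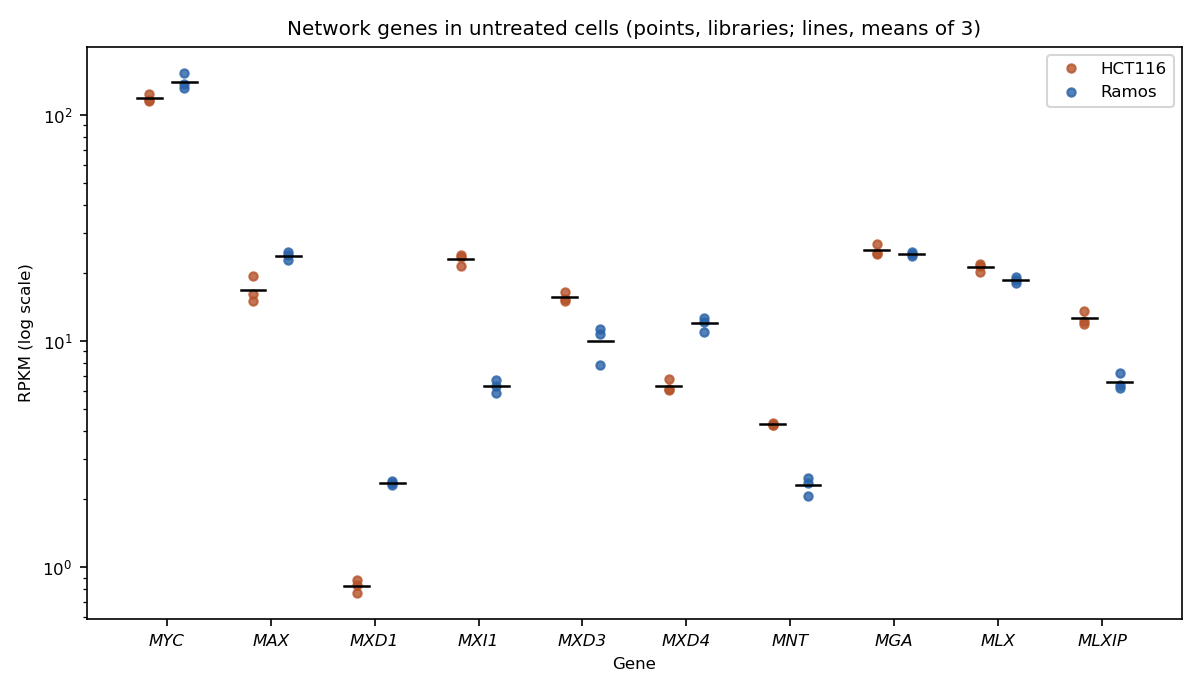
RPKM of the 10 network genes in untreated HCT116 and Ramos cells on a log axis, with 1 point per library and a bar at the mean of the 3 libraries. MYC lies above every other member in both lines, and MXI1 shows the widest gap between the lines (23.0 against 6.29 RPKM).

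The next comparisons ask how the network responded to Omomyc in each line. At 6 h the response was line dependent for the MXD genes: MXD3 and MXD4 fell in HCT116 cells and rose in Ramos cells. MNT rose in HCT116 cells at both doses and in Ramos cells at 2.5 μM, and MAX did not pass the test in any of the 8 comparisons with untreated cells, although it did in 2 of them under equal-sum rescaling. At 24 h MYC fell in HCT116 cells. The 4 comparisons of each line share the same 3 untreated libraries. The labels give these libraries no time, so time in culture and Omomyc cannot be told apart in the comparisons with untreated cells. In bulk RNA, fewer cells with a transcript and less of it per cell cannot be told apart.

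In HCT116 cells, 8 of the 10 members passed the test at 2 μM and 6 h (4 higher and 4 lower), against 47.3% of all genes (15.5% higher and 31.8% lower). At 10 μM and 6 h 4 members passed (1 higher and 3 lower), against 30% of all genes (8.84% higher and 21.2% lower), and 7 passed without replicate 3. Without that replicate MXD3 (-0.95), MXD4 (-0.98), MXI1 (-0.92) and MNT (0.99) still passed, and MAX (-0.26), MGA (-0.19) and MXD1 (0.16) did not. At 2 μM and 24 h 4 members passed (1 higher and 3 lower), against 27.3% of all genes (16.6% higher and 10.8% lower). At 10 μM and 24 h 5 passed (2 higher and 3 lower), against 35.2% of all genes (19.5% higher and 15.7% lower). At 6 h the library ranges of treated and untreated cells were apart, without overlap, for 8 and 5 members (2 and 10 μM), against 57.8% and 50.2% of all genes, and at 24 h for 7 and 6 members, against 44.9% and 49.3%. In Ramos cells, 2 members passed at 500 nM and 6 h, both higher, against 23.6% of all genes (13.8% higher and 9.73% lower). At 2.5 μM and 6 h 4 passed, all higher, against 27.9% of all genes (17.3% higher and 10.7% lower). No member passed in Ramos cells at 500 nM and 24 h, where limma called 0.0146% of all genes (0.0146% higher and 0% lower), and 0 members had an unadjusted p under 0.05. At 2.5 μM and 24 h 1 member passed, higher, against 4.61% of all genes (3.3% higher and 1.31% lower). Libraries did not overlap for 5 and 6 members at 6 h (500 nM and 2.5 μM), against 41.4% and 44.7% of all genes, and for 2 and 4 members at 24 h, against 11.5% and 27.4%. The median log2 fold change over the members lay between -0.04 and 0.17 in the HCT116 comparisons and between 0.02 and 0.14 in the Ramos comparisons, beside medians over all genes of -0.12 to 0.04 and 0.02 to 0.05. Rescaling to an equal sum moved the median over all genes to -0.42 and -0.56 in HCT116 cells at 6 h (2 and 10 μM) and to 0.24 in Ramos cells at 2.5 μM and 24 h, so the directions below are read beside that scaling. With it 7 members passed in Ramos cells at 2.5 μM and 24 h, all higher, and with median-ratio scaling 0 passed. The 7 were MYC, MXI1, MXD3, MXD4, MNT, MLX and MGA. Without the filter on low values, which tests more genes, calls ended in HCT116 cells for MXI1, MNT and MGA at 2 μM and 6 h, for MXI1 at 10 μM and 6 h, for MYC, MXI1, MXD3 and MXD4 at 2 μM and 24 h, and for MXD3, MXD4 and MLX at 10 μM and 24 h.

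**Figure D2:**
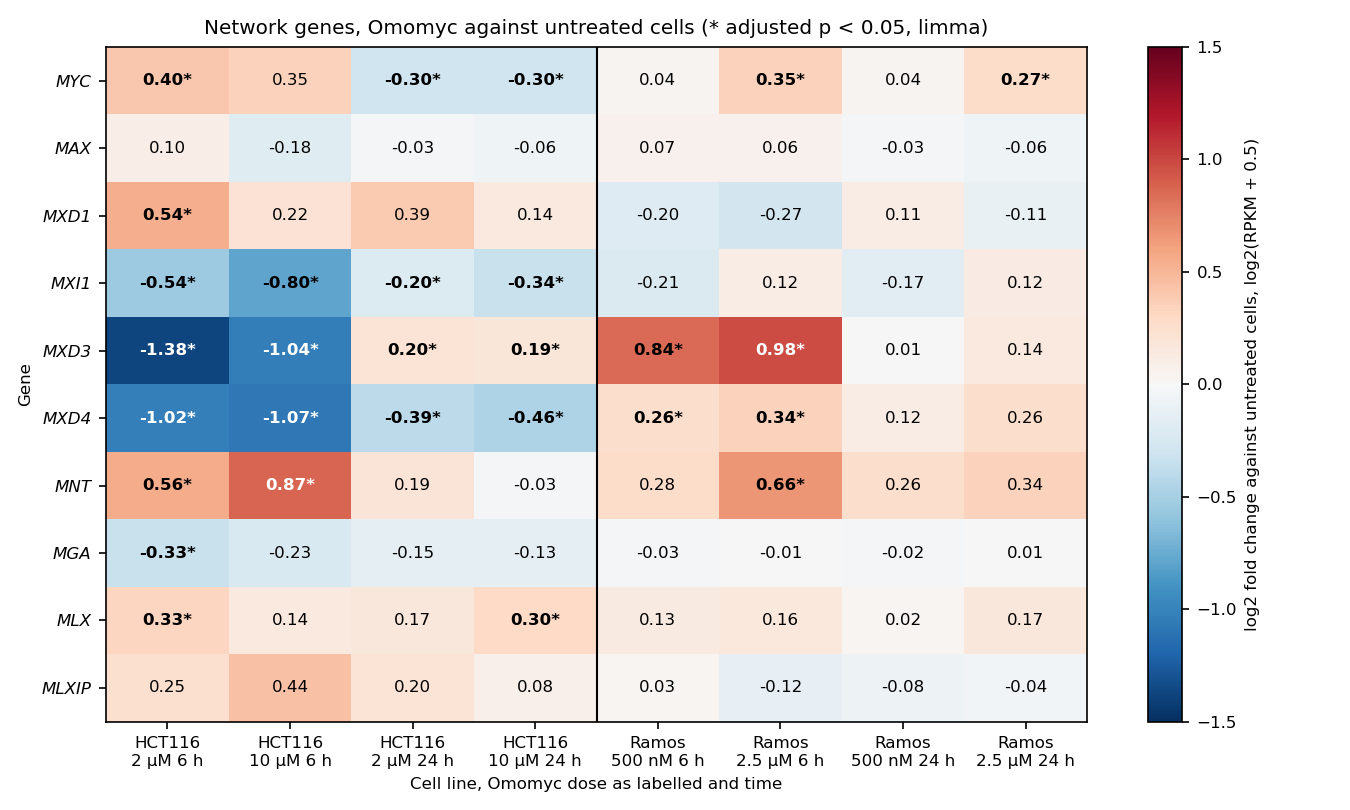
Log2 fold change on the log2(RPKM + 0.5) scale of each network gene against untreated cells of the same line, 1 column per cell line, dose and time, with an asterisk for a limma adjusted p under 0.05. The MXD3 cells range from -1.38 (HCT116, 2 μM, 6 h) to 0.98 (Ramos, 2.5 μM, 6 h), and the MAX row holds no asterisk.

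**Figure D3:**
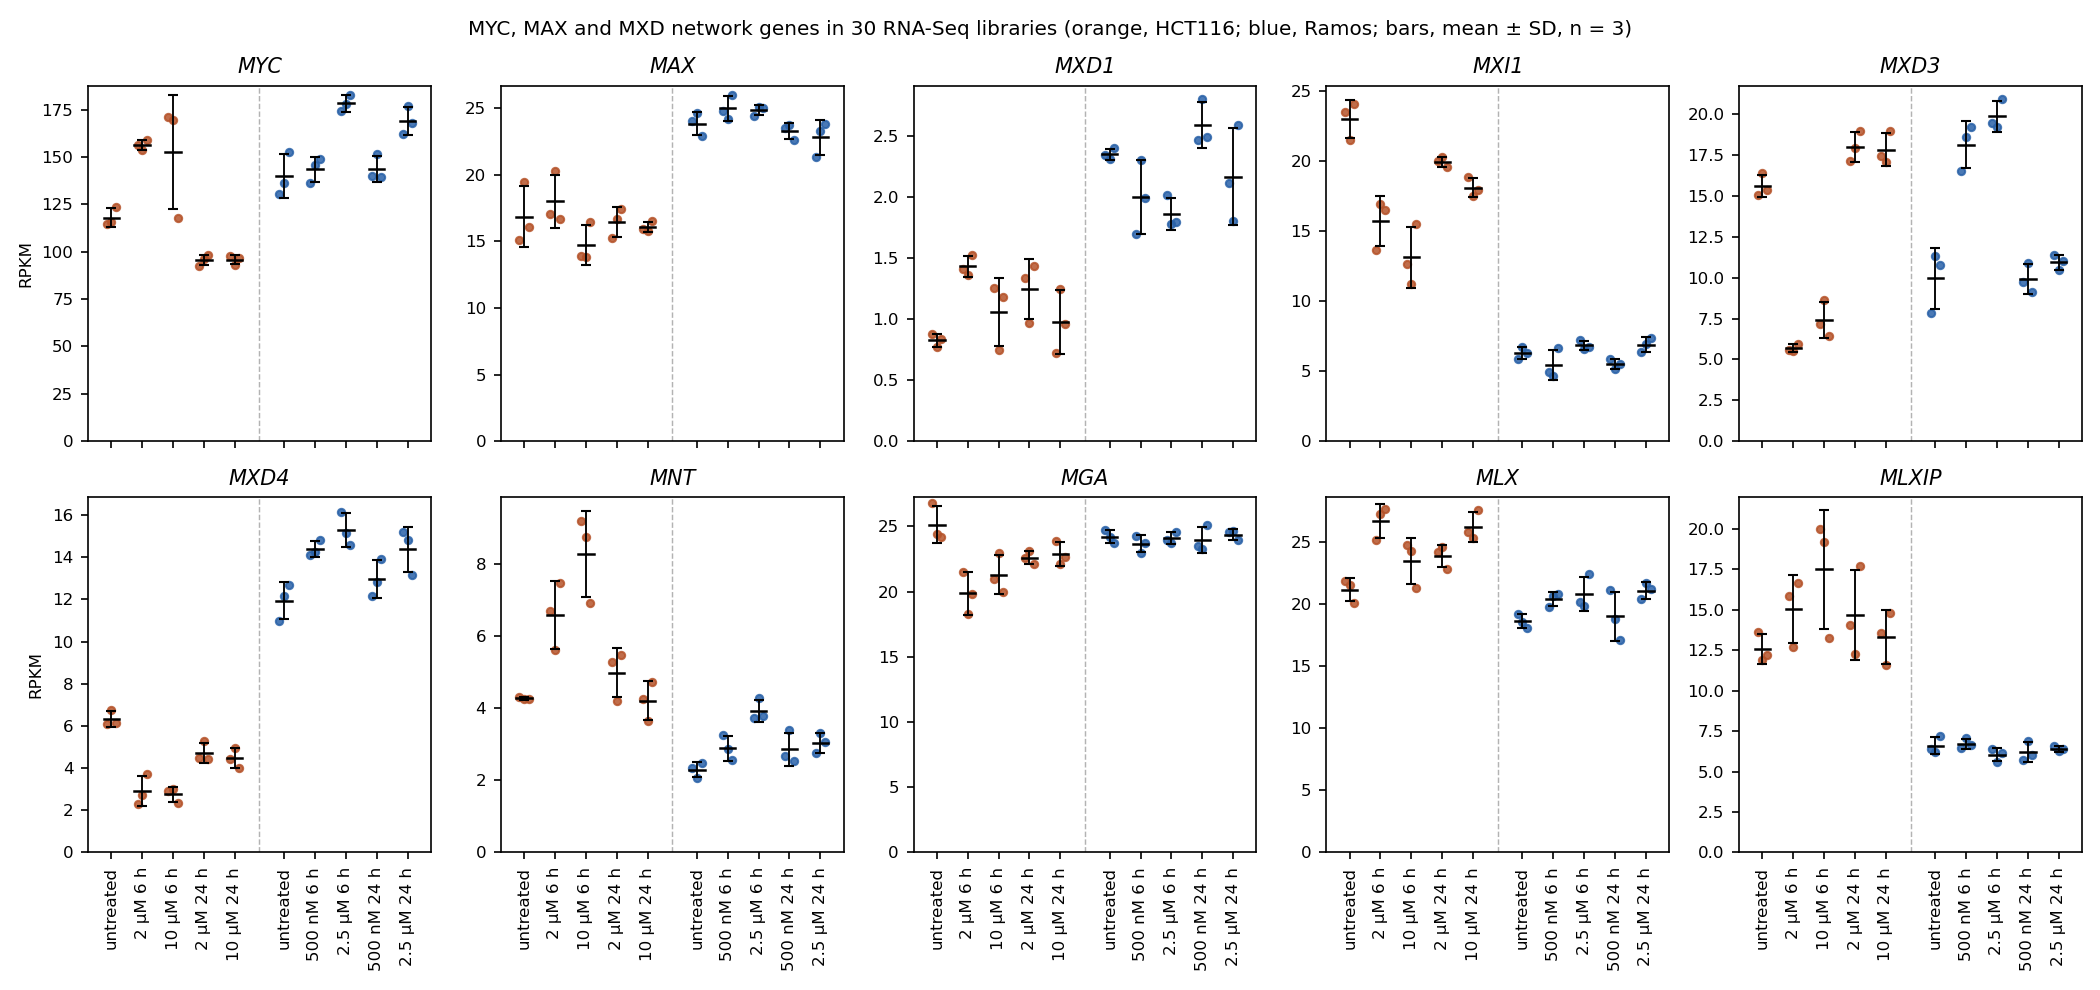
RPKM of each network gene in every library by group, with 1 panel per gene, 1 point per library and a bar at the mean of the 3 libraries. MXD3 drops to between 5.54 and 8.62 RPKM in HCT116 cells at 6 h and reaches 16.5 to 20.9 RPKM in Ramos cells at 6 h.

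MYC encodes the activator of the network. In HCT116 cells it was at 115, 116 and 124 RPKM without Omomyc, 156, 153 and 159 RPKM at 2 μM and 6 h, and 171, 169 and 118 RPKM at 10 μM and 6 h. At 24 h it was at 92.7, 96.3 and 98.1 RPKM at 2 μM and at 97.7, 93.2 and 96.7 RPKM at 10 μM. All libraries at 24 h lay below all untreated ones, the 2 μM libraries at 6 h lay above them, and at 10 μM and 6 h replicate 3 fell within the untreated range. MYC thus rose at 2 μM and 6 h by 0.40 ± 0.059 (log2, SE, limma adjusted p = 0.000646), although only 0.07 (adjusted p = 0.604) was left under equal-sum rescaling. At 10 μM and 6 h the difference of 0.35 did not pass (limma adjusted p = 0.128), and it was 0.53 and passed without replicate 3 but -0.14 under equal-sum rescaling. At 24 h MYC fell by 0.30 at 2 μM (SE 0.047, limma adjusted p = 0.00283) and by 0.30 at 10 μM (SE 0.049, adjusted p = 0.00164). With all groups in one fit neither fall passed (limma adjusted p = 0.111 at 2 μM and 0.0786 at 10 μM), and the fall at 2 μM also did not pass without the filter on low values (adjusted p = 0.0551).

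In Ramos cells, MYC was at 131, 137 and 153 RPKM in untreated libraries, 136, 146 and 149 RPKM at 500 nM and 6 h, and 174, 178 and 183 RPKM at 2.5 μM and 6 h. At 24 h the libraries stood at 140.1, 152 and 139.7 RPKM for 500 nM and at 162, 177 and 168 RPKM for 2.5 μM. The 500 nM libraries overlapped the untreated ones at both times, and the 2.5 μM libraries lay above them at both times. MYC rose at 2.5 μM by 0.35 ± 0.058 at 6 h (log2, SE, limma adjusted p = 0.00292). The rise of 0.27 ± 0.061 at 24 h was close to the threshold (limma adjusted p = 0.0424) and missed it in 8 of 15 alternatives, among them median-ratio scaling, the replicate block and the removal of any 1 library treated with 2.5 μM for 24 h or of untreated replicate 1 or 2 (0.23 to 0.34 over all leave-outs). At 500 nM the differences were 0.04 at 6 h and 0.04 at 24 h and did not pass.

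MAX encodes the obligate partner of MYC, the MXD proteins, MNT and MGA. Its libraries ranged from 15.1 to 19.4 RPKM in untreated HCT116 cells and from 22.9 to 24.6 RPKM in untreated Ramos cells. Its group means after Omomyc were 14.8 to 18.0 RPKM in HCT116 cells and 22.8 to 25.01 RPKM in Ramos cells. The differences lay between -0.18 (HCT116, 10 μM, 6 h) and 0.10 (HCT116, 2 μM, 6 h), and none of the 8 passed the test in limma. Under equal-sum rescaling MAX was -0.66 in HCT116 cells at 10 μM and 6 h (limma adjusted p = 0.0138) and 0.20 in Ramos cells at 2.5 μM and 6 h (adjusted p = 0.0361), and both passed. The ratio of MYC to MAX RPKM, given without a test, was 7.09 ± 0.992 in untreated HCT116 cells (SD, n = 3). It was 8.75 ± 1.05 and 10.6 ± 2.96 at 6 h (2 and 10 μM), and 5.83 ± 0.228 and 5.97 ± 0.146 at 24 h. The untreated HCT116 libraries (5.94 to 7.70) overlapped those of every treated HCT116 group. At 10 μM and 6 h the libraries stood at 12.3, 12.2 and 7.14. In Ramos cells the ratio was 5.89 ± 0.687 without Omomyc, 5.75 ± 0.267 and 7.18 ± 0.109 at 6 h (500 nM and 2.5 μM), and 6.18 ± 0.213 and 7.41 ± 0.315 at 24 h. The 2.5 μM libraries lay above the untreated ones at both times, and the 500 nM libraries overlapped them. FNTB overlaps MAX on the other strand, and the strand setting of the counting is not stated.

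MXD3, a MAX partner and repressor best known from proliferating cells in S phase, moved the most of all members. In HCT116 cells it was at 15.1, 16.4 and 15.3 RPKM without Omomyc, 5.59, 5.54 and 5.96 RPKM at 2 μM and 6 h, and 7.15, 8.62 and 6.43 RPKM at 10 μM and 6 h. At 24 h it was at 17.1, 17.9 and 18.9 RPKM at 2 μM and at 17.4, 17.1 and 19.0 RPKM at 10 μM. All 6 h libraries lay below and all 24 h libraries above the untreated ones. MXD3 fell at 6 h by 1.38 ± 0.078 at 2 μM (log2, SE, limma adjusted p = 7.37e-06), to 0.385 of the untreated level. At 10 μM and 6 h it fell by 1.04 ± 0.126 (limma adjusted p = 0.00190). Both falls held their call in all 15 alternatives. The 24 h rises were small (0.20 at 2 μM, limma adjusted p = 0.0394, and 0.19 at 10 μM, adjusted p = 0.0474) and missed the threshold in 11 and 10 of 15 alternatives, including both scalings. Without 1 library they were 0.16 to 0.23 and 0.14 to 0.22, and the call was lost on removal of HCT116 untreated replicate 1 or 3, of any 1 library of 2 μM and 24 h, or of replicate 1 or 3 of 10 μM and 24 h.

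In Ramos cells the direction of MXD3 at 6 h was the opposite. The libraries stood at 7.83, 11.3 and 10.8 RPKM without Omomyc, 16.5, 18.6 and 19.2 RPKM at 500 nM and 6 h, and 19.4, 19.2 and 20.9 RPKM at 2.5 μM and 6 h. At 24 h they stood at 9.75, 10.9 and 9.11 RPKM for 500 nM and at 11.4, 10.4 and 11.0 RPKM for 2.5 μM. Every 6 h library exceeded every untreated one, and the 24 h libraries overlapped the untreated range at both doses. MXD3 rose by 0.84 ± 0.127 at 500 nM (log2, SE, limma adjusted p = 0.00198) and by 0.98 ± 0.122 at 2.5 μM (adjusted p = 0.000745), that is 1.80-fold and 1.97-fold, and kept both calls in all 15 alternatives. At 24 h the differences were 0.01 and 0.14 and did not pass. Without untreated replicate 1, the lowest library, the difference at 2.5 μM and 24 h was -0.01. Under equal-sum rescaling it was 0.34 and passed (limma adjusted p = 0.0462).

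MXD3 overlaps RAB24 on the same strand and PRELID1 on the other strand, so part of its reads may be shared with them. RAB24, a small GTPase gene, was at 5.86 RPKM in untreated HCT116 cells and fell at 6 h by 0.69 at 2 μM (limma adjusted p = 0.000422) and by 0.51 at 10 μM (adjusted p = 0.0262). At 24 h RAB24 was -0.15 at 2 μM, which did not pass, and -0.30 at 10 μM (adjusted p = 0.0342). In Ramos cells its differences were 0.13 and -0.02 at 6 h and 0.16 and 0.15 at 24 h, and none passed. PRELID1, a mitochondrial lipid transfer gene, rose in HCT116 cells at 2 μM and 6 h (0.45, limma adjusted p = 0.00137). It also rose there at 24 h (0.18 and 0.21, adjusted p = 0.0290 and 0.0102), but 0.22 at 10 μM and 6 h did not pass. In Ramos cells PRELID1 rose at 6 h (0.31 and 0.34, adjusted p = 0.00242 and 0.00136) and at 2.5 μM and 24 h (0.26, adjusted p = 0.0173). At 500 nM and 24 h its 0.10 did not pass. The part of these neighbours in the MXD3 values was not tested.

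MXD4, a MAX partner and repressor known mainly from differentiating and resting cells, shared the directions of MXD3 at 6 h. In HCT116 cells it was at 6.09, 6.78 and 6.14 RPKM without Omomyc, 2.30, 2.72 and 3.73 RPKM at 2 μM and 6 h, and 2.94, 2.99 and 2.34 RPKM at 10 μM and 6 h. At 24 h it was at 4.50, 5.28 and 4.42 RPKM (2 μM) and at 4.44, 4.95 and 4.03 RPKM (10 μM). Every treated HCT116 library lay below every untreated one. MXD4 fell at 6 h by 1.02 ± 0.148 at 2 μM (log2, SE, limma adjusted p = 0.000612) and by 1.07 ± 0.129 at 10 μM (adjusted p = 0.00181). By 24 h it fell by 0.39 at 2 μM (SE 0.091, limma adjusted p = 0.0151) and by 0.46 at 10 μM (SE 0.095, adjusted p = 0.00497). The fall at 2 μM and 24 h missed the threshold in 4 of 15 alternatives, among them the removal of replicate 1 of 2 μM and 24 h (-0.36) or untreated replicate 2 (-0.34).

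In Ramos cells, MXD4 libraries stood at 11.0, 12.2 and 12.7 RPKM without Omomyc, 14.1, 14.3 and 14.8 RPKM at 500 nM and 6 h, and 16.2, 15.1 and 14.6 RPKM at 2.5 μM and 6 h. All treated libraries at 6 h lay above the untreated ones. MXD4 rose by 0.34 ± 0.073 at 2.5 μM (log2, SE, limma adjusted p = 0.00935), a call that held in all 15 alternatives. The rise of 0.26 ± 0.073 at 500 nM (limma adjusted p = 0.0302) missed the threshold in 5 alternatives, namely without the trend, without any 1 of the 3 libraries of 500 nM and 6 h (0.24 to 0.27), and without untreated replicate 1 (0.21). At 24 h its group means were 13.0 RPKM at 500 nM and 14.4 RPKM at 2.5 μM, and neither difference passed (0.12 and 0.26). The second was called in 2 of 15 alternatives, equal-sum rescaling among them.

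MXI1 encodes MXD2, a further MAX partner and repressor that is also known as a hypoxia-responsive gene. It fell in HCT116 cells in all 4 comparisons, whereas no Ramos comparison passed. It was at 23.5, 21.5 and 24.0 RPKM in untreated HCT116 cells, 13.6, 16.95 and 16.5 RPKM at 2 μM and 6 h, and 12.7, 11.2 and 15.5 RPKM at 10 μM and 6 h. After 24 h it was at 20.0, 20.3 and 19.5 RPKM (2 μM) and at 18.8, 17.5 and 17.9 RPKM (10 μM). Every treated library lay below every untreated one. The falls were 0.54 ± 0.093 at 2 μM and 6 h (log2, SE, limma adjusted p = 0.00143) and 0.80 ± 0.133 at 10 μM and 6 h (adjusted p = 0.00539). MXI1 then fell by 0.20 at 2 μM and 24 h (SE 0.058, limma adjusted p = 0.0319) and by 0.34 at 10 μM and 24 h (SE 0.062, adjusted p = 0.00282). The fall of 0.20 missed the threshold in 9 of 15 alternatives, among them the removal of any 1 library treated with 2 μM for 24 h (-0.19 to -0.21) or of untreated replicate 1 (-0.18) or 3 (-0.17). In Ramos cells the group means ranged from 5.42 RPKM (500 nM, 6 h) to 6.89 RPKM (2.5 μM, 24 h) around 6.29 RPKM in untreated cells. The difference of 0.12 at 2.5 μM and 24 h was 0.31 under equal-sum rescaling and then passed (limma adjusted p = 0.0402).

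MXD1, the founding MAD repressor, was the least abundant member in HCT116 cells. Its libraries there stood at 0.876, 0.768 and 0.836 RPKM without Omomyc and at 1.41, 1.36 and 1.53 RPKM at 2 μM and 6 h. These ranges did not overlap, and MXD1 rose by 0.54 ± 0.138 (log2, SE, limma adjusted p = 0.0103), which became 0.31 (adjusted p = 0.138) under equal-sum rescaling. At 10 μM and 6 h the libraries (1.26, 0.744 and 1.19 RPKM) overlapped the untreated ones, and the difference of 0.22 did not pass. At 24 h the means were 1.25 RPKM (2 μM) and 0.978 RPKM (10 μM) and did not pass. In Ramos cells MXD1 was at 2.35 ± 0.0444 RPKM (SD, n = 3) without Omomyc and at means of 1.87 to 2.59 RPKM in the treated groups, and no difference passed. SNRNP27, a spliceosomal protein gene on the same strand that overlaps MXD1, was more abundant (20.0 RPKM in untreated HCT116 cells) and rose by 0.28 at 2 μM and 6 h (limma adjusted p = 0.0200). Reads shared between them were not tested.

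MNT, a broadly expressed MAX partner and repressor that antagonizes MYC, rose at 6 h in both lines. In HCT116 cells it was at 4.32, 4.26 and 4.25 RPKM without Omomyc, 6.69, 5.61 and 7.49 RPKM at 2 μM and 6 h, and 9.19, 8.75 and 6.92 RPKM at 10 μM and 6 h. In Ramos cells it was at 2.34, 2.07 and 2.47 RPKM without Omomyc, 3.25, 2.87 and 2.57 RPKM at 500 nM and 6 h, and 3.73, 4.28 and 3.78 RPKM at 2.5 μM and 6 h. Every 6 h library exceeded every untreated library of its line. The rises in HCT116 cells were 0.56 ± 0.112 at 2 μM (log2, SE, limma adjusted p = 0.00304) and 0.87 ± 0.130 at 10 μM (adjusted p = 0.00365). Under equal-sum rescaling they were 0.25 and 0.42 and did not pass. In Ramos cells MNT rose by 0.66 ± 0.114 at 2.5 μM (limma adjusted p = 0.00341), a call held in all 15 alternatives, whereas 0.28 at 500 nM did not pass (adjusted p = 0.160). At 24 h the means were 4.997 and 4.21 RPKM in HCT116 cells and 2.86 and 3.04 RPKM in Ramos cells, and no difference passed. The 0.34 of Ramos cells at 2.5 μM and 24 h was called in 2 of 15 alternatives, equal-sum rescaling among them. The 0.19 of HCT116 cells at 2 μM and 24 h was called in 1.

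MGA, a large scaffold protein with both a T-box and a helix-loop-helix zipper, varied little. Its libraries ranged from 18.2 to 26.8 RPKM in HCT116 cells and from 23.0 to 25.1 RPKM in Ramos cells. It fell in HCT116 cells at 2 μM and 6 h, from 26.8, 24.4 and 24.2 to 21.5, 18.2 and 19.8 RPKM, which do not overlap. The log2 fall was 0.33 ± 0.080 (SE, limma adjusted p = 0.00775), and it was 0.19 and did not pass under median-ratio scaling. The other 7 comparisons gave -0.23 to 0.01 and did not pass. Under equal-sum rescaling MGA passed in the other 3 HCT116 comparisons too (-0.72 at 10 μM and 6 h, -0.30 and -0.32 at 24 h). It then also passed as a rise in Ramos cells at 2.5 μM and 24 h (0.21, limma adjusted p = 0.0449).

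In the MLX arm, MLX rose in HCT116 cells at 2 μM and 6 h and at 10 μM and 24 h. MLXIP passed in none of the 8 comparisons of Omomyc with untreated cells. MLX was at 21.9, 21.5 and 20.1 RPKM in untreated HCT116 cells, 25.1, 27.2 and 27.7 RPKM at 2 μM and 6 h, and 25.8, 25.3 and 27.6 RPKM at 10 μM and 24 h. Neither treated group overlapped the untreated one, and the rises were 0.33 ± 0.070 (log2, SE, limma adjusted p = 0.00430) and 0.30 ± 0.059 (adjusted p = 0.00372). Equal-sum rescaling took the first to -0.01 and the second to 0.12, and neither then passed. At 2 μM and 24 h the MLX libraries stood at 24.2, 24.6 and 22.8 RPKM, all above the untreated ones. The difference of 0.17 missed the threshold (limma adjusted p = 0.0515), and 2 of 15 alternatives called it. Its values over the alternatives ran from 0.016 to 0.20. The MLX libraries at 10 μM and 6 h were at 24.8, 24.3 and 21.3 RPKM, and the difference of 0.14 did not pass. It was 0.21 and passed without replicate 3, the lowest of them, and -0.34 under equal-sum rescaling. In Ramos cells the MLX means were 18.6 RPKM without Omomyc and 19.0 to 21.1 RPKM with it, and no difference passed in the main fit. Under equal-sum rescaling it was 0.29 at 2.5 μM and 6 h and 0.38 at 2.5 μM and 24 h, and both passed. At 500 nM and 6 h 1 of 15 alternatives called MLX higher. PSMC3IP overlaps MLX on the other strand.
MLXIP, the glucose-sensing partner of MLX, was at 13.6, 11.9 and 12.2 RPKM in untreated HCT116 cells and at 20.0, 19.2 and 13.3 RPKM at 10 μM and 6 h. Replicate 3 of the treated group lay within the untreated range, and the difference of 0.44 did not pass (limma adjusted p = 0.0789). It was 0.62 and passed without replicate 3, and -0.04 under equal-sum rescaling. At 2 μM and 6 h the MLXIP difference of 0.25 did not pass (limma adjusted p = 0.0869). There 2 of 15 alternatives called it, and it was -0.08 under equal-sum rescaling. In Ramos cells the MLXIP means lay between 6.04 and 6.72 RPKM in all 5 groups.

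The RPKM of the 5 repressors MXD1, MXI1, MXD3, MXD4 and MNT were added in each library and are given without a test. The sum was 50.04 ± 0.497 RPKM in untreated HCT116 cells (SD, n = 3), 32.3 ± 2.79 and 32.6 ± 0.486 RPKM at 6 h (2 and 10 μM), and 48.9 ± 0.816 and 45.6 ± 1.09 RPKM at 24 h. In Ramos cells it was 32.8 ± 2.996 RPKM without Omomyc, 42.8 ± 2.38 and 47.8 ± 0.776 RPKM at 6 h (500 nM and 2.5 μM), and 33.9 ± 1.11 and 37.4 ± 0.300 RPKM at 24 h. The summed repressors were thus lower at 6 h in HCT116 cells and higher at 6 h in Ramos cells than in untreated cells of the same line. MYC RPKM divided by this sum was 2.36 ± 0.0756 in untreated HCT116 cells, 4.85 ± 0.383 at 2 μM and 6 h, and 4.67 ± 0.901 at 10 μM and 6 h (5.19 without replicate 3). At 24 h it was 1.96 ± 0.0309 and 2.10 ± 0.0320. In Ramos cells it was 4.27 ± 0.278 without Omomyc, 3.36 ± 0.0617 and 3.73 ± 0.128 at 6 h, and 4.24 ± 0.0811 and 4.52 ± 0.228 at 24 h. A ratio within a library is free of the scaling of that library, but it says nothing of protein.

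**Figure D4:**
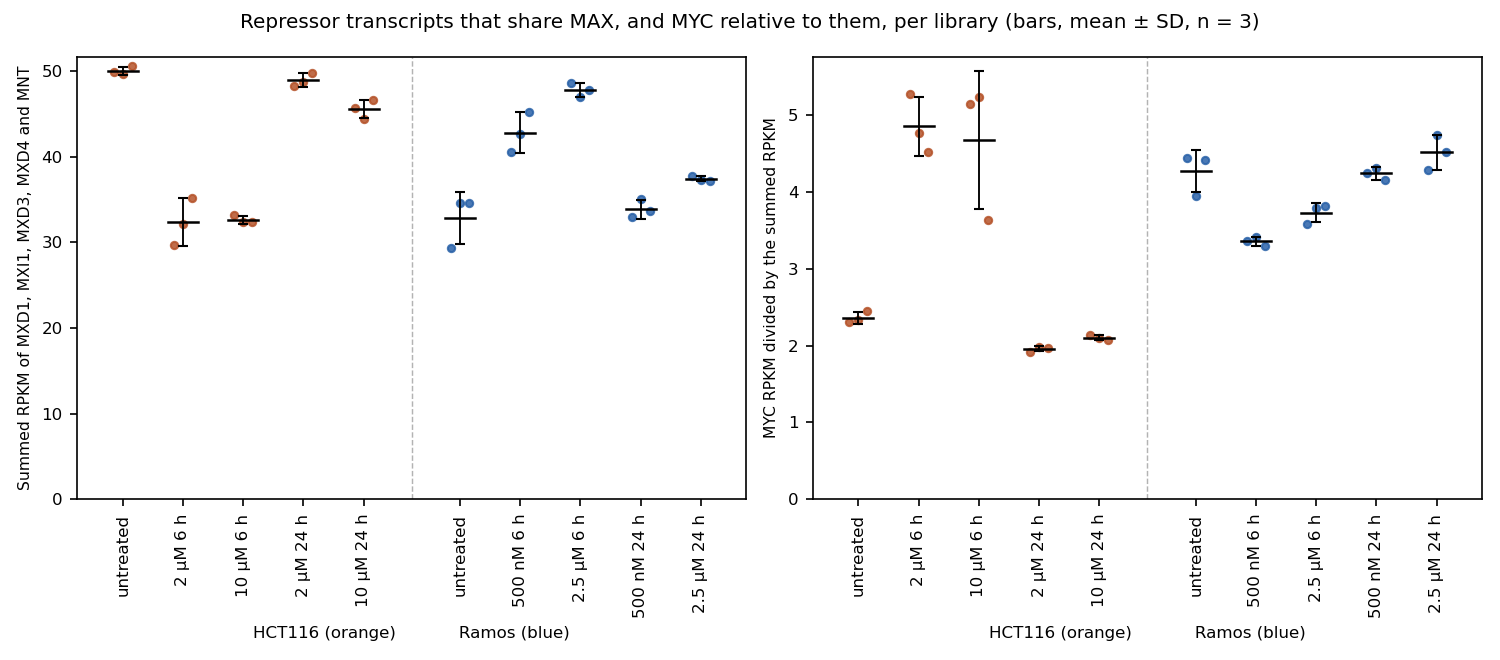
Summed RPKM of the 5 repressors (MXD1, MXI1, MXD3, MXD4, MNT) and the ratio of MYC RPKM to that sum by group, with 1 point per library and a bar at the mean of the 3 libraries. The mean ratio is highest in HCT116 cells at 6 h (4.85 and 4.67 against 2.36 untreated) and lowest in HCT116 cells at 24 h. The HCT116 libraries at 10 μM and 6 h (3.64 to 5.24) overlap those of untreated Ramos cells (3.95 to 4.45).

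The groups at 24 h and 6 h were then compared at the same dose. In HCT116 cells at 2 μM, 4 of 10 members differed, 3 higher and 1 lower at 24 h, against 40.8% of all genes (30.9% higher and 9.85% lower). MXD3 was 2.98-fold higher at 24 h (1.58 on the log2 scale, limma adjusted p = 6.64e-06), MXD4 was higher by 0.63 (adjusted p = 0.0121) and MXI1 by 0.34 (adjusted p = 0.0165). MYC was lower at 24 h (-0.71, limma adjusted p = 0.000168). At 10 μM 4 of 10 members differed, 2 higher and 2 lower, against 7.86% of all genes (5.8% higher and 2.06% lower): MXD3 (1.22, adjusted p = 0.00245), MXD4 (0.61, adjusted p = 0.0420), MNT (-0.90, adjusted p = 0.0160) and MYC (-0.65, adjusted p = 0.0446) in limma. The calls of MXD4, MNT and MYC at 10 μM were lost in 7 to 9 of 15 alternatives, among them the removal of any 1 of the 3 libraries of 10 μM and 24 h or of replicate 1 of 10 μM and 6 h. Over all leave-outs they were 0.52 to 0.68 (MXD4), -0.81 to -1.01 (MNT) and -0.56 to -0.83 (MYC), and MYC and MXD4 were also lost without replicate 2 of 10 μM and 6 h. The MXI1 call at 2 μM was lost under median-ratio scaling (0.15, limma adjusted p = 0.261), without the filter on low values, and without replicate 1 (0.34) or 2 (0.33) of 2 μM and 24 h. Without that filter the calls of MXD4 at 2 μM and MXD3 at 10 μM were lost too.
In Ramos cells MXD3 was lower at 24 h at 500 nM (-0.84, limma adjusted p = 0.000170) and at 2.5 μM (-0.83, adjusted p = 3.56e-05), and these calls held in all 15 alternatives. It was the 1 member that differed at 500 nM, against 25.4% of all genes. At 2.5 μM, 2 members differed, against 23% of all genes, the other being MNT (-0.32, limma adjusted p = 0.0491), whose call was lost on removal of any 1 of the 6 libraries (-0.26 to -0.38).

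Between doses at the same time, few members differed. In HCT116 cells at 6 h limma called 0 of the 10 members and 0% of all genes between 10 and 2 μM, and 1 member had an unadjusted p under 0.05, MXD3 (0.34, 95% interval 0.02 to 0.67, adjusted p = 0.587). At 24 h it called 0 members, against 0.18% of all genes, and 1 member had an unadjusted p under 0.05, MXI1 (-0.14). In Ramos cells 1 member differed at each time, MYC, against 0.429% of all genes at 6 h and 4.25% at 24 h. MYC was higher at 2.5 μM than at 500 nM by 0.31 at 6 h (95% interval 0.22 to 0.41, limma adjusted p = 0.0244) and by 0.23 at 24 h (95% interval 0.12 to 0.34, adjusted p = 0.0304). Both calls were lost on removal of any 1 of the 3 libraries of 2.5 μM at that time, and also without replicate 2 or 3 (6 h) or replicate 1 or 3 (24 h) of 500 nM, with values of 0.27 to 0.34 at 6 h and 0.20 to 0.27 at 24 h over all leave-outs.

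Whether the lines differed in their response was tested as the interaction of line and treatment, the HCT116 change minus the Ramos change. At 6 h, with 2 μM in HCT116 cells and 2.5 μM in Ramos cells, 5 of 10 members differed, 1 higher and 4 lower, against 40.6% of all genes (12.2% higher and 28.4% lower). MXD3 gave the widest difference, -2.35 ± 0.153 (log2, SE, limma adjusted p = 2.31e-06), followed by MXD4 (-1.37 ± 0.176, adjusted p = 0.000140), MXD1 (0.82 ± 0.115, adjusted p = 0.000251) and MXI1 (-0.66 ± 0.121, adjusted p = 0.00134). These 4 held in all alternatives, and MGA (-0.33 ± 0.089, limma adjusted p = 0.0123) did not under median-ratio scaling (-0.19). MYC gave 0.05 (95% interval -0.12 to 0.23) and MNT -0.10 (95% interval -0.41 to 0.21), neither of which passed. Under equal-sum rescaling both were lower in HCT116 cells and passed, at -0.42 for MYC (limma adjusted p = 0.0127) and -0.51 for MNT (adjusted p = 0.0281), so an equal response of these genes depends on the scaling. MLX passed with either scaling but with opposite signs (0.31 under median-ratio and -0.30 under equal-sum).
At 24 h, with 2 μM against 2.5 μM, 3 members differed, all lower, against 16.3% of all genes (6.81% higher and 9.51% lower): MYC (-0.57, adjusted p = 0.00173), MXD4 (-0.65, adjusted p = 0.00552) and MXI1 (-0.32, adjusted p = 0.0399) in limma, the last of which was lost in 12 of 21 alternatives, 9 of them removals of 1 library (-0.27 to -0.37 over all leave-outs). With 10 μM against 2.5 μM, doses that do not match, the same 3 members differed in limma, against 22.5% of all genes (9.65% higher and 12.9% lower), namely MYC (-0.57, adjusted p = 0.000912), MXD4 (-0.72, adjusted p = 0.00199) and MXI1 (-0.46, adjusted p = 0.00719). MXD3 gave 0.06 and 0.04 at 24 h and did not pass. Line and delivery of Omomyc cannot be told apart in these differences.

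**Figure D5:**
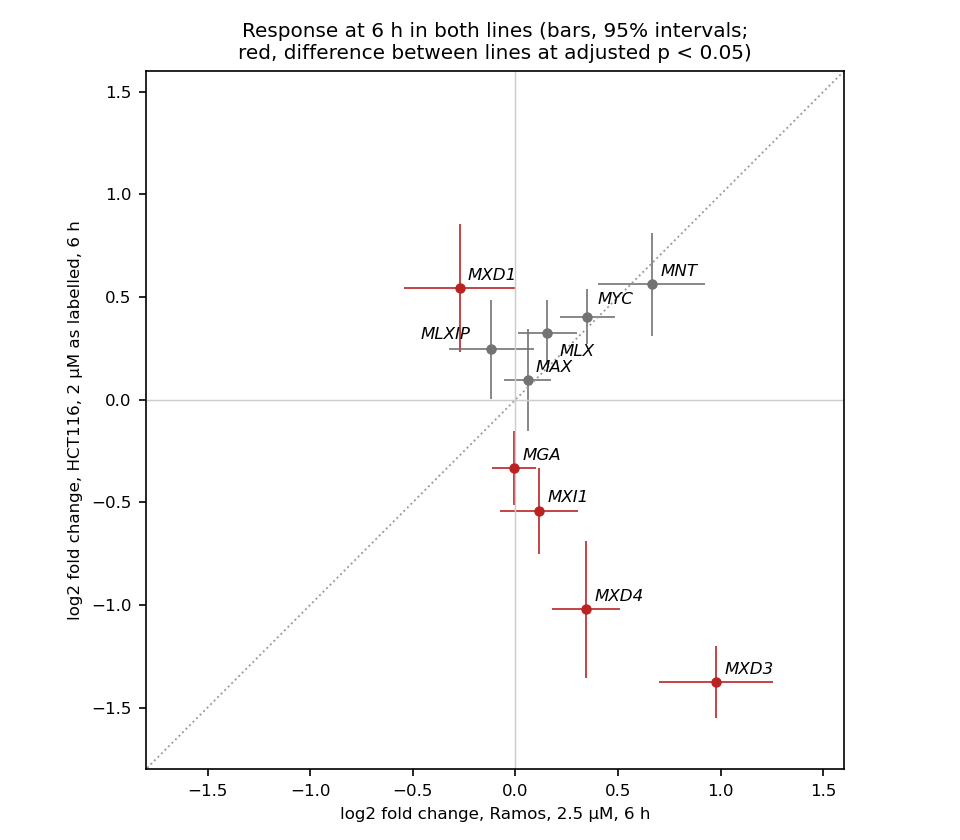
Log2 fold change at 6 h in Ramos cells (2.5 μM, horizontal axis) and HCT116 cells (2 μM, vertical axis) for the 10 network genes, with bars for 95% intervals and red for members whose response differed between the lines (limma adjusted p under 0.05). On these values MYC and MNT lie near the diagonal of equal change, which they did not under equal-sum rescaling (differences of -0.42 and -0.51), and MXD3 and MXD4 lie in the quadrant of a rise in Ramos cells and a fall in HCT116 cells.

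Genes with the most similar profile of log2 fold changes over the 8 comparisons were sought for MYC and for MXD3, the other member with the widest change, among 9228 genes of at least 2 mean RPKM in both lines. Likeness was the root mean square difference, a description over 8 values that share untreated libraries. The nearest to MYC were GNPNAT1 (0.119), WEE1 (0.120), RAB22A (0.122), CHAMP1 (0.124) and FAM206A (0.124). The nearest to MXD3 were CDKN2C (0.272), HIST2H3C (0.310), RALGPS1 (0.314), ALDOC (0.321) and HIST2H2AA3 (0.322). CDKN2C, a CDK4 and CDK6 inhibitor gene, had changes of -0.92 and -0.998 in HCT116 cells at 6 h and 0.54 and 0.50 in Ramos cells at 6 h. HIST2H3C and HIST2H2AA3 belong to histone families with near-identical copies, so their values are uncertain. Among the members themselves, the nearest to MYC was MLX (0.293) and the nearest to MXD3 was MXD4 (0.455).

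Paralogs outside the 10 members showed a further fall in HCT116 cells. MYCL, a MYC family member, was at 4.86 ± 0.522 RPKM (SD, n = 3) in untreated HCT116 cells, 1.78 ± 0.118 RPKM at 2 μM and 6 h, and 1.65 ± 0.566 RPKM at 10 μM and 6 h. It fell by 1.23 ± 0.117 (log2, SE, limma adjusted p = 8.61e-05) and by 1.35 ± 0.206 (adjusted p = 0.00384), and the second was -1.14 and still passed without replicate 3. At 24 h MYCL differed by -0.01 and -0.29 and did not pass, and in Ramos cells (1.61 RPKM untreated) no difference passed. MLXIPL (ChREBP), the paralog of MLXIP, was at 8.48 RPKM in untreated HCT116 cells, fell by 0.43 at 2 μM and 6 h (limma adjusted p = 0.0268) and rose at 24 h by 0.41 (adjusted p = 0.0272) and 0.38 (adjusted p = 0.0211). The MLXIPL rises were 0.26 and 0.20 and did not pass under equal-sum rescaling. In Ramos cells its group means were at most 0.0262 RPKM, below the filter, and MYCN group means were at most 0.00477 RPKM in both lines.

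The other genes of the network's pathways are given by list, each count beside the share of all genes called in the same comparison. Those shares in HCT116 cells were 15.5% higher and 31.8% lower at 2 μM and 6 h, 8.84% and 21.2% at 10 μM and 6 h, 16.6% and 10.8% at 2 μM and 24 h, and 19.5% and 15.7% at 10 μM and 24 h. In Ramos cells they were 13.8% and 9.73% at 500 nM and 6 h, 17.3% and 10.7% at 2.5 μM and 6 h, 0.0146% and 0% at 500 nM and 24 h, and 3.3% and 1.31% at 2.5 μM and 24 h. Equal-sum rescaling lowered the counts of rises in HCT116 cells for most lists. It raised the counts of rises in Ramos cells at 2.5 μM for most lists, and values for some comparisons are given below. In HCT116 cells at 24 h it left 0 rises in every list except the MYC-activated genes.

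Of the 9 SIN3 corepressor genes, which encode the complex that MXD proteins recruit, 6 fell and 1 rose in HCT116 cells at 2 μM and 6 h, and 7 fell and 0 rose at 10 μM and 6 h. At 24 h 6 fell and 1 rose at each dose. In Ramos cells 2 and 3 rose at 6 h (500 nM and 2.5 μM), none fell, and none passed at 24 h. Under equal-sum rescaling 5 and 6 rose at 2.5 μM (6 and 24 h). The list medians were -0.33, -0.45, -0.21 and -0.27 in HCT116 cells (2 and 10 μM at 6 h, then at 24 h), beside -0.12, -0.11, 0.04 and 0.02 over all genes. Under median-ratio scaling 5 fell at 6 h and 6 at 24 h at each dose, under equal-sum rescaling 7 and 8 fell at 6 h and 6 at 24 h at each dose, and without replicate 3 of 10 μM and 6 h 1 rose and 7 fell. HDAC1, a histone deacetylase, was at 129.9 ± 1.22 RPKM in untreated HCT116 cells and 74.9 ± 9.49 RPKM at 10 μM and 6 h, a fall of 0.80 ± 0.117 (limma adjusted p = 0.00332), or 0.69 without replicate 3. SAP30, a SIN3-associated subunit, went from 11.2 ± 0.961 to 5.75 ± 0.146 RPKM, a fall of 0.90 ± 0.107 (limma adjusted p = 0.00178), and rose in Ramos cells at 6 h by 0.37 (adjusted p = 0.00494) and 0.32 (adjusted p = 0.00467). SIN3B, a scaffold of the complex and the member that rose at 24 h (0.44 at 2 μM and 0.45 at 10 μM, but not under equal-sum rescaling), was named after its values were seen.

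Of the 20 MYC-activated genes, 19 were tested and CCND2 was not. In HCT116 cells 10 rose and 0 fell at 2 μM and 6 h, 5 rose and 1 fell at 10 μM and 6 h, and 6 rose and 1 fell at 24 h at each dose. In Ramos cells 8 and 9 rose at 6 h, 0 and 6 rose at 24 h (500 nM and 2.5 μM), and none fell. At 2.5 μM and 24 h 19 rose under equal-sum rescaling and 4 under median-ratio scaling, and at 2.5 μM and 6 h 12 rose under the first and 8 rose and 1 fell under the second. At 2 μM and 6 h the list median was 0.32 beside -0.12 over all genes, and under equal-sum rescaling 4 rose and 4 fell, with a median of -0.02 beside -0.42. For 10 μM and 6 h, 9 rose and 2 fell without replicate 3, and 0 rose and 6 fell under equal-sum rescaling. Under that rescaling 1 rose and 3 fell at 2 μM and 24 h, and 2 rose and 1 fell at 10 μM and 24 h. NOP16, a ribosome biogenesis gene, went from 23.3 ± 1.10 to 40.7 ± 1.80 RPKM in HCT116 cells at 10 μM and 6 h (0.79 ± 0.093, limma adjusted p = 0.00172). NOP56, a component of box C/D small nucleolar ribonucleoproteins, went from 223 ± 2.18 to 386 ± 59.5 RPKM (0.78 ± 0.129, limma adjusted p = 0.00511). Under equal-sum rescaling these were 0.31 and 0.29 and did not pass.

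The targets of MLXIP and MLX, TXNIP and ARRDC4, were each expressed in 1 of the lines. TXNIP, an inhibitor of glucose uptake and thioredoxin, was at 10.3 ± 0.802 RPKM in untreated Ramos cells, 5.402 ± 0.289 RPKM at 500 nM and 6 h, and 5.55 ± 0.371 RPKM at 2.5 μM and 6 h. It fell by 0.86 ± 0.088 (log2, SE, limma adjusted p = 0.000323) and by 0.83 ± 0.087 (adjusted p = 0.000286), and both calls held under either scaling. At 24 h TXNIP was at 10.3 and 10.1 RPKM and did not pass, and in HCT116 cells its group means were 0 to 0.21 RPKM, below the filter. ARRDC4, a related arrestin domain gene, fell in HCT116 cells from 5.29 ± 0.299 RPKM to 4.12, 3.38, 3.92 and 2.83 RPKM (2 and 10 μM at 6 h, then at 24 h). Its falls were 0.33 (limma adjusted p = 0.0330), 0.58 (adjusted p = 0.00964), 0.39 (adjusted p = 0.0154) and 0.80 (adjusted p = 0.000319), the first of which was 0.20 and did not pass under median-ratio scaling. ARRDC4 was listed at 0 in untreated and treated Ramos cells.

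Of the 11 Polycomb partners of MGA, 2 rose and 1 fell at 2 μM and 6 h in HCT116 cells, 0 rose and 1 fell at 10 μM and 6 h, 0 rose and 3 fell at 2 μM and 24 h, and 1 rose and 3 fell at 10 μM and 24 h. In Ramos cells 2, 3, 0 and 2 rose (500 nM and 2.5 μM at 6 h, then at 24 h) and none fell. Under median-ratio scaling 7 rose at 2 μM and 6 h in HCT116 cells, and under equal-sum rescaling 0 did. In the 10 μM and 6 h comparison 2 rose and 1 fell without replicate 3, and 4 fell under equal-sum rescaling. In Ramos cells at 2.5 μM 6 and 7 rose (6 and 24 h) under equal-sum rescaling, and 2 and 0 under median-ratio scaling. CBX1, a heterochromatin protein, fell in HCT116 cells at 10 μM and 6 h from 123 ± 4.43 to 80.4 ± 7.72 RPKM (-0.61 ± 0.105, limma adjusted p = 0.00578). TFDP1, the dimer partner of E2F6, rose in Ramos cells at 2.5 μM and 6 h from 88.7 ± 3.56 to 119 ± 4.55 RPKM (0.42 ± 0.047, limma adjusted p = 0.000421).

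Of the 15 MYC cofactor genes, 1 rose and 4 fell at 2 μM and 6 h in HCT116 cells, 0 rose and 4 fell at 10 μM and 6 h (4 and 5 without replicate 3), 3 rose and 1 fell at 2 μM and 24 h, and 1 rose and 2 fell at 10 μM and 24 h. In Ramos cells 3 rose at 500 nM and 6 h, 4 rose and 1 fell at 2.5 μM and 6 h, and 0 and 1 rose at 24 h. At 2 μM and 6 h in HCT116 cells 4 rose and 2 fell under median-ratio scaling, and 0 rose and 10 fell under equal-sum rescaling. With equal-sum rescaling 0 rose and 6 fell at 10 μM and 6 h, and 0 rose and 3 fell at 24 h at each dose. In Ramos cells at 2.5 μM 7 and 8 rose (6 and 24 h) under equal-sum rescaling. KMT2A, a histone methyltransferase, fell by 0.63 ± 0.184 in HCT116 cells at 10 μM and 6 h (limma adjusted p = 0.0363), or by 0.42 without replicate 3. CDK9, the kinase of P-TEFb, rose in Ramos cells at 500 nM and 6 h from 13.0 ± 1.001 to 19.8 ± 1.96 RPKM (0.59 ± 0.087, limma adjusted p = 0.00183). WDR5 belongs to this list and to the Polycomb list.
Of 14 genes of MYC turnover, 2, 1, 1 and 2 rose and 2, 3, 0 and 1 fell in HCT116 cells (2 and 10 μM at 6 h, then at 24 h). In Ramos cells 13 were tested, and 4, 4, 0 and 1 rose and 1, 1, 0 and 0 fell (500 nM and 2.5 μM at 6 h, then at 24 h). At 2 μM and 6 h in HCT116 cells 5 rose and 1 fell under median-ratio scaling, and 0 rose and 8 fell under equal-sum rescaling. For 10 μM and 6 h 1 rose and 5 fell without replicate 3, and 0 rose and 8 fell under equal-sum rescaling. In Ramos cells at 2.5 μM and 24 h 9 rose under equal-sum rescaling. HUWE1, a ubiquitin ligase, fell by 0.73 ± 0.206 in HCT116 cells at 10 μM and 6 h (limma adjusted p = 0.0329), or by 0.48 without replicate 3. USP36, a nucleolar deubiquitinase of MYC, rose by 0.68 ± 0.199 in the same comparison (limma adjusted p = 0.0371), but 0.20 was left under equal-sum rescaling.
Of 9 other E box factors, 8 were tested in HCT116 cells, where 0, 0, 1 and 3 rose and 1, 1, 0 and 0 fell (2 and 10 μM at 6 h, then at 24 h). In Ramos cells 7 were tested, 3 and 5 rose at 6 h and none passed at 24 h. Under equal-sum rescaling 6 and 4 fell in HCT116 cells at 6 h (2 and 10 μM), and 4 rose in Ramos cells at 2.5 μM and 24 h. At 24 h in HCT116 cells that rescaling left 0 rises, and 2 and 1 fell (2 and 10 μM). Without replicate 3 of 10 μM and 6 h 1 rose and 3 fell. SREBF2, a regulator of cholesterol synthesis, fell in HCT116 cells at 2 μM and 6 h from 33.2 ± 1.40 to 20.0 ± 2.81 RPKM (-0.73 ± 0.1002, limma adjusted p = 0.000464). SREBF1, its paralog in lipid synthesis, rose in Ramos cells at 500 nM and 6 h from 13.3 ± 0.538 to 20.6 ± 0.150 RPKM (0.61 ± 0.060, limma adjusted p = 0.000271). TFAP4 belongs both to this list and to the MYC-activated genes.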

How the data were processed

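The deposited values are RPKM that the authors computed from stranded total RNA libraries, 30 in all and 57992 genes in each, and RSEM is named in the submitters' processing notes. The aligner, genome build and annotation are not given in the sources used here. Depth is unknown, so no count model, interval or detection floor was computed. Ensembl identifiers were matched to symbols and positions of GENCODE 29 (GRCh38), where 57388 genes were found and 604 were not. Replicates correlated at 0.973 to 0.996 over 30 pairs, with 0 identical.

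Limma 3.58.1 (R 4.3.3, lmFit and eBayes with trend) was run on log2(RPKM + 0.5). Each of 20 comparisons used only the libraries of its groups and genes of at least 0.5 mean RPKM, and Benjamini-Hochberg adjustment ran over all genes tested. On data simulated for HCT116 cells at 10 μM and 24 h, 98% of 200 genes changed by 1 on the log2 scale were recovered among 14695 genes. For the interaction at 24 h with 10 μM in HCT116 cells, 93.5% of 200 were recovered. The changed genes were drawn from the more abundant ones, so neither smaller changes nor genes as low as MXD1 were covered. Promoter windows were taken from a RefSeq table (GRCh38.p14).

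The members and lists were chosen with earlier results of these data known. Named were all members, the 2 genes of each list with the widest change (all of lists of up to 3 genes), and the 5 nearest profiles. Alternatives were other pseudocounts, filters and scalings, no trend, a replicate block, all groups in one fit and leaving out each library. List counts under scalings and without 1 library were added after the data were seen. A further B-cell marker set in the design was left out of the tables and is not reported here.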

Additional observations from a re-analysis of the deposited data

Results flagged for a closer look

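The difference between the lines in the response to Omomyc (HCT116 change minus Ramos change, log2, limma interaction test) passed the threshold for 11 pairs of member and comparison. At 6 h (2 μM in HCT116 cells and 2.5 μM in Ramos cells) the values were -2.353 for MXD3, -1.366 for MXD4, 0.815 for MXD1, -0.657 for MXI1 and -0.328 for MGA. At 24 h with the same doses they were -0.645 for MXD4, -0.574 for MYC and -0.321 for MXI1. At 24 h with 10 μM in HCT116 cells and 2.5 μM in Ramos cells they were -0.720 for MXD4, -0.571 for MYC and -0.459 for MXI1.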

How the results depend on the processing

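The values rest on 3 libraries a group and unknown depth, so low genes such as MXD1 carry the least precision. The number of the 10 members called moved by more than 1.5 times in these cases, and the cause was not tested. Without the filter on low values it was 5, 0 and 2 for HCT116 2 μM 6 h, 2 μM 24 h and 10 μM 24 h, 3 for Ramos 2.5 μM 24 h, 2 and 0 for 24 against 6 h in HCT116 cells (2 and 10 μM), and 2 and 2 for dose in Ramos cells (6 and 24 h). Equal-sum rescaling gave 4 for HCT116 2 μM 6 h, 7 for Ramos 2.5 μM 24 h, 1 for Ramos 2.5 μM 24 against 6 h, 3 for Ramos dose at 24 h, and 9, 7 and 6 for the interactions (6 h, 24 h at 2 μM, 24 h at 10 μM). Median-ratio scaling gave 7 for HCT116 10 μM 6 h and 0 for Ramos 2.5 μM 24 h. Without the trend it was 1 for Ramos 500 nM 6 h and 0 for Ramos 2.5 μM 24 h and for both Ramos dose comparisons. With all groups in one fit it was 0, 7 and 3 for HCT116 2 μM 24 h, 10 μM 6 h and 10 μM 24 h, 2 for Ramos 2.5 μM 24 h and 1 for Ramos 2.5 μM 24 against 6 h. With 1 library left out the counts ran from 1 to 4 (HCT116 2 μM 24 h), 4 to 7 (10 μM 6 h), 1 to 2 (Ramos 500 nM 6 h), 0 to 1 (Ramos 2.5 μM 24 h), 3 to 5 and 1 to 6 (24 against 6 h in HCT116 cells, 2 and 10 μM), 1 to 1 (Ramos 2.5 μM 24 against 6 h), 0 to 1 (each Ramos dose comparison) and 2 to 3 (interaction at 24 h, 2 μM).

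Same-numbered libraries showed no clear joint deviation (mean correlation of deviations from group means between -0.177 and 0.0968 per comparison). The highest mean was that of HCT116 10 μM 6 h against untreated cells, with values of 0.0609 to 0.142. With 3 libraries a group these values cannot show whether same-numbered libraries shared a culture. With the replicate block the count was 2 for HCT116 2 μM 24 h, 0 for Ramos 2.5 μM 24 h, 1 for HCT116 10 μM and for Ramos 2.5 μM at 24 against 6 h, and 0 for Ramos dose at 6 h. 

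Signs turned under equal-sum rescaling for MLX (-0.00508) and MLXIP (-0.0814) in HCT116 2 μM 6 h, for MYC (-0.143), MLX (-0.342) and MLXIP (-0.0355) in 10 μM 6 h, and for MYC (0.333) and MAX (0.0691) between the lines. In Ramos 2.5 μM 24 h, MGA turned to -0.0414 under median-ratio scaling and ran from -0.00468 (without untreated replicate 3) to 0.0247 over the leave-outs, and MXD3 ran from -0.0121 (without untreated replicate 1) to 0.239. Over the alternatives of 83 of the 200 pairs of member and comparison (those called, and those against untreated cells or between the lines that an alternative called), 1132 kept direction and side of the threshold, 128 lost a call, 37 gained one and 10 changed sign.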
